A study of Oryza sativa Japonica Group with 9 samples.

Results

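High-affinity nitrate uptake was followed through 6 root genes, the 4 NRT2 genes NRT2.1, NRT2.2, NRT2.3 and NRT2.4 and the 2 NAR2 genes NAR2.1 and NAR2.2. They were chosen by locus identifier, with earlier results of these data known, out of 34285 genes present in both deposited tables. All 6 were found in both. The material was root of the rice cultivar Nipponbare (Oryza sativa Japonica Group) without any transgene, grown on complete nutrients (control), under N deficiency or under P deficiency, with 3 libraries made from biological replicates in each of the 3 groups. The same control libraries served both deficiencies. The sources used here give no plant age, nutrient recipe or treatment length.

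NRT2 proteins belong to the major facilitator superfamily and carry nitrate into root cells together with protons when soil nitrate is scarce. Most of them work only with a small partner protein of the NAR2 family, which is needed for the transporter to reach the plasma membrane. In rice, NAR2.1 is a known partner of NRT2.1, NRT2.2 and a transcript form of NRT2.3, while NRT2.4 has been reported to carry nitrate without it. The genes are classic targets of nitrogen status in roots, and in Arabidopsis they are held down by NIGT1-type GARP repressors and switched on through NIN-like proteins (NLPs).

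NRT2.1 (Os02g0112100) lies on the plus strand of chromosome 2 at 655324 to 657243, and NRT2.2 (Os02g0112600) on the minus strand at 667264 to 669053. The tail ends of this pair face each other across 10020 bases in which the tables list no gene. NRT2.3 (Os01g0704100) lies on the plus strand of chromosome 1 at 29188850 to 29190936, and NRT2.4 (Os01g0547600) on the minus strand at 20385993 to 20388511. NAR2.1 (Os02g0595900) lies on the minus strand of chromosome 2 at 23121133 to 23123149, and NAR2.2 (Os04g0480200) on the minus strand of chromosome 4 at 24018298 to 24019456. Coordinates follow the deposited tables, and the sources used here name no rice genome build. The tables give the NRT2 genes a Major Facilitator Superfamily domain and the NAR2 genes a domain of high-affinity nitrate transporter accessory proteins. Exons, introns and UTRs are not given there, but the gene length equals the genomic span for NRT2.1, NRT2.2 and NRT2.3 and is shorter than the span for NRT2.4, NAR2.1 and NAR2.2. NRT2.1 and NRT2.2 are close copies, and since no source used here names the read counter, reads that fit both could have been split or dropped. NRT2.3 is known to give 2 transcript forms, which the tables do not separate.

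Depth ranged from 17931023 to 22752492 reads in genes per library, over the gene sets of both tables. Of 7 root markers, 6 were in the tables, and all 6 had reads in each library except the root hair expansin EXPA17, which was at 0 in P library 3. Their summed normalised reads lay between 121397 and 153437 in 8 libraries and at 84102 in P library 3. RCc3, the most abundant marker there, stood at 37649 in P library 3 against 94680 and 84605 in P libraries 1 and 2. Lsi1, Lsi2 and SHR1 were also lowest in P library 3 among the P libraries, SHR1 at 510 against 554 and 534. SCR1 was highest there, at 425 against 291 and 375. The 5 shoot markers, genes for the small Rubisco subunit and for chlorophyll-binding proteins, summed to 7800 to 20728 normalised reads in control, 1747 to 2664 under N deficiency and 4753 to 7168 under P deficiency, and the part of such differences in the results below was not tested.

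N-deficient roots were first set against control roots, to see how the uptake system responds when nitrogen runs short. All 6 genes rose, and each of the 3 N-deficient libraries stood above each control library for every one of them. Across all tested genes, 12.8% were called, 6.9% higher and 5.94% lower, and with no overlap between groups 15.8% stood higher and 15% lower. The members' median log2 fold change was 4.52, against -0.01 over all 32680 genes tested. In bulk RNA, a change in the number of cells that express a gene and a change in RNA per cell cannot be told apart.

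NRT2.4, a root nitrate transporter, stood at 17.3, 17.5 and 30.7 normalised reads in control libraries 1, 2 and 3 and at 8901, 7104 and 8091 in N libraries 1, 2 and 3. Its mean was 368-fold higher under N deficiency (log2 fold change 8.50 ± 0.213, SE; limma, adjusted p = 1.1e-06), rank 1 among all genes tested by size of rise. NRT2.1, which takes up nitrate at the root surface, stood at 14.96, 11.6 and 11.2 in control and at 1424, 1042 and 1255 under N deficiency, a 98.5-fold higher mean (6.51 ± 0.180; limma, adjusted p = 1.7e-06; rank 2). Both genes were low in control roots, and no control library came near any N-deficient one.

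NRT2.3, a transporter linked to loading of nitrate into the xylem as well as to uptake, stood at 343, 450.04 and 368 normalised reads in control and at 12096, 8392 and 15198 under N deficiency. The mean was 30.7-fold higher (log2 fold change 4.91 ± 0.207; limma, adjusted p = 1.5e-05; rank 5). NRT2.2 stood at 119, 103 and 124 in control and at 1455, 1045 and 1455 under N deficiency, an 11.5-fold higher mean (3.49 ± 0.154; limma, adjusted p = 1.8e-05; rank 37). The close copies NRT2.1 and NRT2.2 therefore differed widely in control reads and reached nearly equal reads under N deficiency. With the reads of both counted as 1 gene the log2 fold change was 4.31.

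Of the partner genes, NAR2.1 stood at 2246, 1978 and 2572 normalised reads in control and at 30491, 21946 and 32508 under N deficiency, a 12.5-fold higher mean (log2 fold change 3.63 ± 0.172; limma, adjusted p = 2.2e-05; rank 32). NAR2.2, the less studied of the pair, stood at 27.6, 35.9 and 46.5 in control and at 644, 509 and 815 under N deficiency, a 17.9-fold higher mean (4.13 ± 0.233; limma, adjusted p = 5.1e-05; rank 16). N library 2 held the lowest of the 3 N-deficient values for 6 of 6 genes, and even there each gene was far above its control range. Each of these 6 calls held in every alternative tried, leaving out each library among them, with adjusted p up to 9.8e-04.

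**Figure D1:**
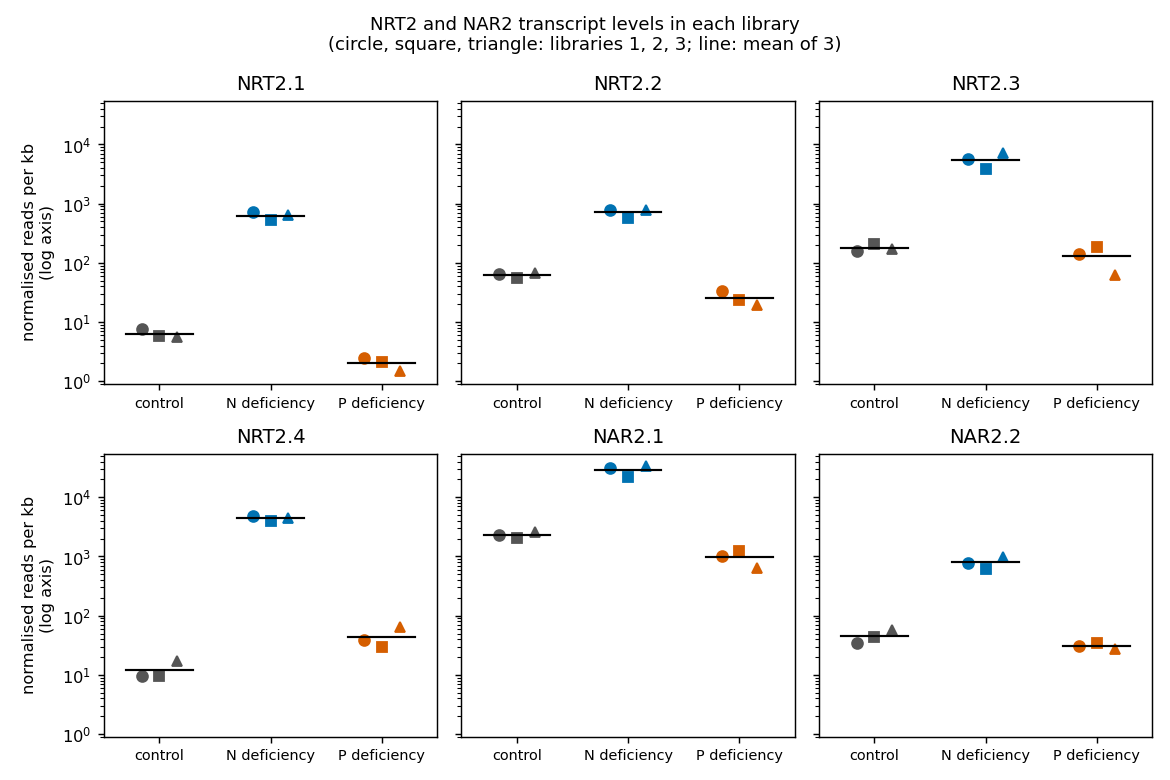
Normalised reads per kb of gene length on a log axis for the 6 genes, 1 panel per gene, in control, N-deficient and P-deficient libraries; symbols mark libraries 1, 2 and 3 and the line is the mean of 3. For each gene the N-deficient libraries lie above all others, and for NRT2.4 alone the 3 P-deficient libraries also lie above the 3 control libraries.

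P-deficient roots were set against the same control libraries, to see how these genes respond to shortage of another nutrient. NRT2.2 and NAR2.1 fell, NRT2.4 rose, and NRT2.1, NRT2.3 and NAR2.2 did not pass the test. Across all 32576 tested genes, 6.28% were called, 3.58% higher and 2.7% lower, and with no overlap between groups 13.3% stood higher and 14.5% lower. The members' median log2 fold change was -0.95, against 0.0010 over all genes tested.

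NAR2.1 stood at 2156, 1890 and 2437 normalised reads in control, on the scale of the P table, and at 960, 1135 and 605 in P libraries 1, 2 and 3. Its log2 fold change was -1.30 ± 0.227 (limma, adjusted p = 0.018), a mean 2.401-fold lower, with no overlap between the groups. NRT2.2 stood at 114, 98.3 and 117 in control and at 57.98, 41.7 and 33.7 under P deficiency, again with no overlap (-1.32 ± 0.237; limma, adjusted p = 0.020). NRT2.1 had 13, 12 and 12 reads in the control libraries and 4, 4 and 3 in the P libraries, before scaling. Its P-deficient values were all below its control values, yet its log2 fold change of -1.45 ± 0.357 did not pass (limma, adjusted p = 0.060). NRT2.1 and NRT2.2 counted as 1 gene gave -1.35 ± 0.231 (limma, adjusted p = 0.017), a value carried by NRT2.2, which had 342 of the control reads and 128 of the P-deficient reads against 37 and 11 for NRT2.1.

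NRT2.4 went the other way, from 16.6, 16.7 and 29.1 normalised reads in control to 66.1, 50.7 and 110.3 under P deficiency. The mean was 3.64-fold higher (log2 fold change 1.79 ± 0.364; limma, adjusted p = 0.032), and the groups did not overlap. Its P-deficient level stayed far below the N-deficient one. NRT2.3 stood at 329, 430.1 and 349 in control and at 290, 370 and 130 under P deficiency, with overlapping groups (-0.61 ± 0.355; limma, adjusted p = 0.38). NAR2.2 stood at 26.5, 34.3 and 44.1 in control and at 24.4, 26.8 and 21.5 under P deficiency, and these groups overlapped too (-0.49 ± 0.277; limma, adjusted p = 0.37).

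In P library 3 the root marker sum was low, though not every marker was. This library also held the lowest P-deficient value for 5 of the 6 genes and the highest for NRT2.4. Without it, the log2 fold changes were -1.04 for NAR2.1, -1.14 for NRT2.2 and 1.48 for NRT2.4 (limma, adjusted p = 0.0051, 0.021 and 0.0399), and that of NRT2.3 was -0.16. The calls under P deficiency were lost when certain other libraries were left out. That of NRT2.2 was lost without P library 2 or control library 1, 2 or 3 (adjusted p up to 0.093), that of NAR2.1 without P library 1 or control library 1, 2 or 3 (up to 0.081), and that of NRT2.4 without P library 1 or 2 or control library 1 or 2 (up to 0.12).

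**Figure D2:**
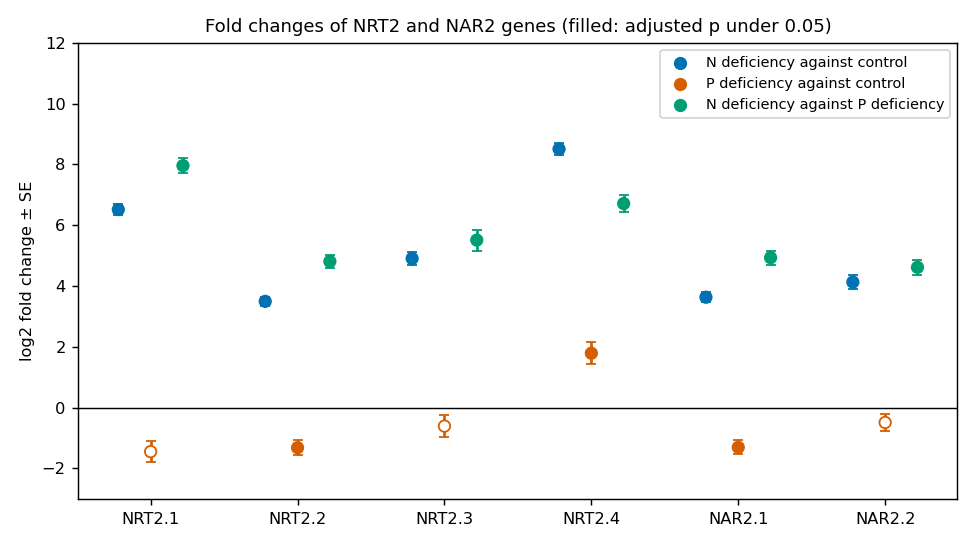
Log2 fold change ± SE of the 6 genes for N deficiency against control, P deficiency against control and N deficiency against P deficiency (filled symbols passed an adjusted p of 0.05). The N-deficiency values run from 3.49 to 8.50 and the P-deficiency values from -1.45 to 1.79, with NRT2.4 the one gene above 0 under P deficiency.

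The direct comparison of N with P deficiency, in which neither side uses the control libraries as its reference, tests whether the deficiencies differ. All 6 genes were higher under N deficiency, with no overlap, against a background of 32806 tested genes of which 3.78% were called, 1.39% higher and 2.4% lower, and of which 10.8% stood higher and 10.4% lower with no overlap. Ranked by log2 fold change over all genes tested, NRT2.1 had rank 1, NRT2.4 rank 2, NRT2.3 rank 5, NAR2.1 rank 7, NRT2.2 rank 8 and NAR2.2 rank 9. The differences ranged from 4.61 ± 0.236 for NAR2.2 to 7.96 ± 0.240 for NRT2.1 (limma, adjusted p = 2.2e-06 and 6.1e-08). In this contrast NRT2.1 was ahead of NRT2.4, whose log2 difference was 6.71 ± 0.286 (limma, adjusted p = 6.3e-07). Each of the 6 calls held when any N-deficient or P-deficient library was left out and with edgeR and DESeq2, with adjusted p up to 1.7e-04 over the alternatives tried.

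Levels were compared between genes as normalised reads per kb, on 1 scale for all 9 libraries. Those of NRT2.1 and NRT2.2 are too low if reads that fit both were dropped. In control the order was NAR2.1 at 2315 ± 303 (SD, n = 3, as in the rest of this paragraph), NRT2.3 at 181 ± 25.97, NRT2.2 at 62.6 ± 5.93, NAR2.2 at 45.01 ± 11.6, NRT2.4 at 12.02 ± 4.23 and NRT2.1 at 6.39 ± 1.06. Among these neighbours in the order, the ranges of NRT2.2 and NAR2.2 overlapped and the others did not. Under N deficiency NAR2.1 reached 28879 ± 5717, followed by NRT2.3 at 5546 ± 1587 and NRT2.4 at 4421 ± 498, whose ranges overlapped. NAR2.2 at 804 ± 187, NRT2.2 at 717 ± 129 and NRT2.1 at 629 ± 97.2 formed a lower group with overlapping ranges between neighbours. NRT2.4 thus moved from the 5th to the third place, next to NRT2.3. Under P deficiency NAR2.1 at 964 ± 294 and NRT2.3 at 129 ± 60.4 again led. NRT2.4 at 43.7 ± 17.6, NAR2.2 at 31.2 ± 3.604 and NRT2.2 at 25.4 ± 7.08 overlapped with their neighbours, as did NRT2.3 with NRT2.4. NRT2.1 was lowest at 2.02 ± 0.498, without overlap.

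Set among all 32806 genes ranked by level per kb, NAR2.1 held place 1115 in control, place 21 under N deficiency and place 3248 under P deficiency. NRT2.3 went from place 12616 in control to place 353 under N deficiency, and NRT2.4 from place 26212 to place 497. The partner gene was therefore already among the well-expressed root genes with full nutrients, whereas NRT2.4 was not.

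The make-up of the NRT2 transcript pool was described by each gene's share of the summed NRT2 level per kb within a library, a measure that does not depend on library scaling. In control, NRT2.3 held 66.2%, 74.6% and 65.7% in libraries 1, 2 and 3, and NRT2.2 held 26.7%, 19.9% and 25.7%. NRT2.4 held 3.94%, 3.42% and 6.46%. Under N deficiency the NRT2.4 share was 40.7%, 43.8% and 34.3%, and that of NRT2.3 was 46.8%, 43.9% and 54.6%. NRT2.2 held 6.56%, 6.37% and 6.10%, slightly more than NRT2.1 at 5.99%, 5.92% and 4.91%. By counted reads, the pool thus held mostly NRT2.3 in control and mostly NRT2.3 and NRT2.4 under N deficiency. If reads that fit both NRT2.1 and NRT2.2 were dropped, the shares of this pair are too low and the others too high. For each of the 4 genes the N-deficient and control shares did not overlap. An exact permutation test, two-sided, gave p = 0.10 for each, the smallest p that 3 against 3 libraries allow.

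Under P deficiency the NRT2.4 share was 17.7% and 12.4% in P libraries 1 and 2 and 43.1% in P library 3, each above the control shares (difference of the means 19.8 percentage points; exact permutation test, two-sided, p = 0.10). NRT2.3 held 65.8%, 76.6% and 43.0%, which overlapped with control (exact permutation test, p = 0.80). In P library 3 the shares of NRT2.3 and NRT2.4 were nearly equal, as in N library 2. Without P library 3 the NRT2.4 difference was 10.5 percentage points, and the NRT2.3 difference changed sign from -7.04 to 2.37.

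**Figure D3:**
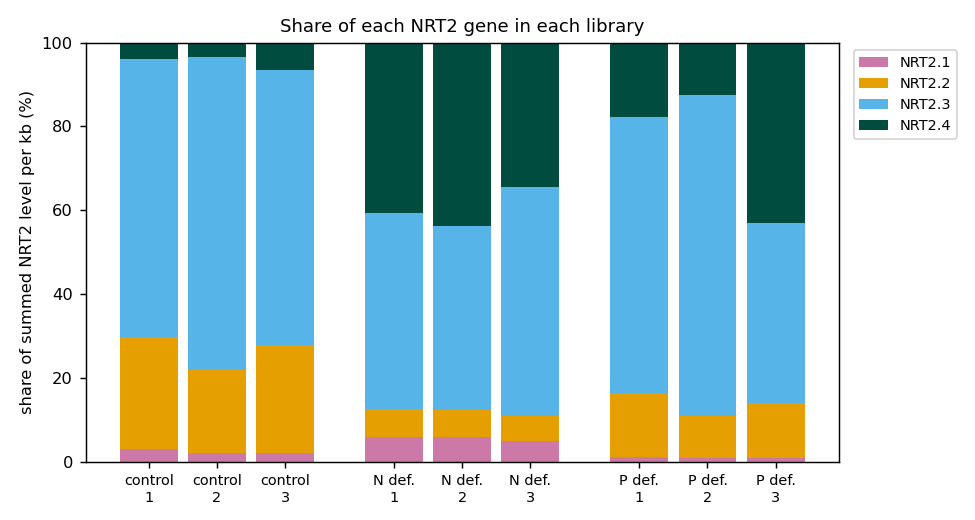
Stacked shares, in percent, of the 4 NRT2 genes in the summed NRT2 level per kb, 1 bar for each of the 9 libraries. Reads that fit both NRT2.1 and NRT2.2 could have been split or dropped. NRT2.4 holds 3.42% to 6.46% in control, 34.3% to 43.8% under N deficiency and 12.4% to 43.1% under P deficiency, where P library 3 stands apart from the other two.

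The balance of the partner NAR2.1 with the transporters was described by the ratio of the NAR2.1 level to the summed NRT2 level, both per kb. If reads that fit both NRT2.1 and NRT2.2 were dropped, the summed level is too low and the ratio too high. In control the ratio was 9.49, 7.17 and 10.03 in libraries 1, 2 and 3. Under N deficiency it was 2.58, 2.51 and 2.56, and under P deficiency 4.77, 5.15 and 4.37. The 3 groups did not overlap, and the N-deficient libraries lay within a narrow range although their NAR2.1 levels differed from 22380 to 33134 reads per kb. On the log2 scale, the NRT2 to NAR2.1 ratio was higher than in control by 1.79 under N deficiency and by 0.89 under P deficiency (exact permutation test, two-sided, p = 0.10 in each case, the smallest possible). A further ratio left NRT2.4, a transporter reported to work without NAR2.1, out of the sum, a choice made after seeing the data. NRT2.3 was kept whole, since its transcript forms were not separated. This ratio was 9.87, 7.43 and 10.7 in control, 4.35, 4.47 and 3.90 under N deficiency and 5.79, 5.87 and 7.68 under P deficiency. The N-deficient libraries then still lay below all others. P library 3 lay above control library 2, so that P deficiency and control overlapped. The log2 differences from control were then 1.13 under N deficiency (exact permutation test, two-sided, p = 0.10) and 0.53 under P deficiency (exact permutation test, two-sided, p = 0.20). NAR2.1 exceeded its relative NAR2.2 by 53.2 ± 12.5 times in control roots, 36.2 ± 3.12 times in N-deficient roots and 30.5 ± 6.23 times in P-deficient roots (SD, n = 3).

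The ratio of NRT2.2 to NRT2.1 per kb was 8.50, 9.47 and 11.9 in control and 13.4, 11.3 and 12.9 under P deficiency. Under N deficiency it was 1.096, 1.08 and 1.24. By counted reads, NRT2.2 was thus the leading copy of the pair in both groups with low expression. The copies were close to parity in N-deficient roots. If the counter split reads shared by both copies, the true ratio would differ from these values. If it dropped them, the ratio rests on the remaining reads alone, although it was divided by full gene lengths.

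**Figure D4:**
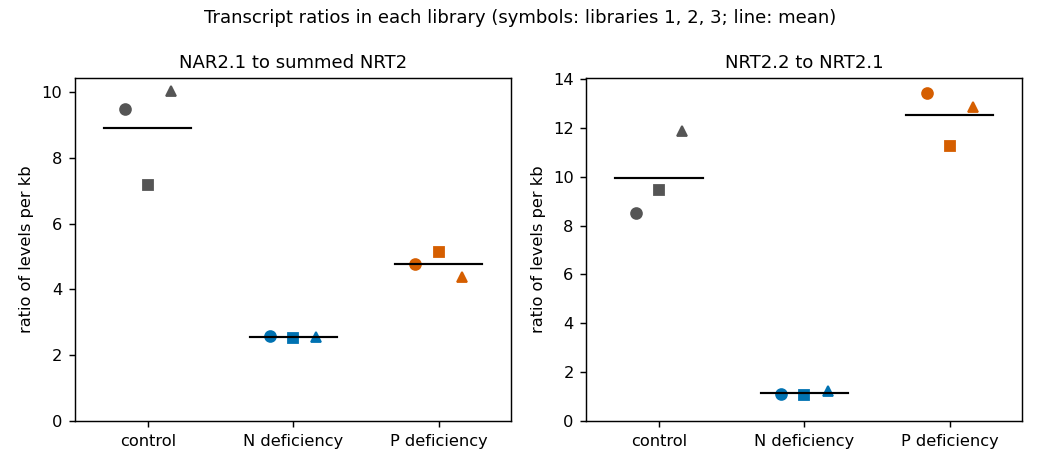
Ratio of NAR2.1 to the summed NRT2 level (left) and of NRT2.2 to NRT2.1 (right), both per kb, in each library; symbols mark libraries 1, 2 and 3 and the line is the mean of 3. Both ratios are lowest under N deficiency, at 2.51 to 2.58 and at 1.08 to 1.24.

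The uptake genes were set beside 21 other genes of nitrate transport, nitrate reduction, ammonium uptake and their regulation. For the counts below, 6.9% of all tested genes were called higher and 5.94% lower under N deficiency. The shares were 3.58% and 2.7% under P deficiency, and 1.39% and 2.4% in N against P deficiency. Among 6 transporters of the NRT1/PTR family, 3 rose and 1 fell under N deficiency, with log2 fold changes from -3.28 to 2.37, so that none reached the 3.49 of the least changed uptake gene. The gene that fell was NRT1.1B, which transports and senses nitrate, with 5039 ± 982 normalised reads in control (SD, n = 3) and 509 ± 1.29 in N-deficient roots (limma, adjusted p = 1.8e-05). It also fell under P deficiency, from 4808 ± 930 to 1551 ± 597 (-1.68 ± 0.281; limma, adjusted p = 0.015). The transporters NRT1 and NPF2.4 rose under both deficiencies, by 0.82 and 1.16 under N deficiency and by 0.78 and 0.74 under P deficiency on the log2 scale. NPF2.2 rose under N deficiency by 2.37 ± 0.404, and its log2 fold change under P deficiency was 1.53 ± 0.411 (limma, adjusted p = 0.076). In N against P deficiency NRT1.1B was called, lower under N deficiency, and the other 5 were not.

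Of 4 nitrate reduction genes, NIA1 and Os02g0770800 fell in each deficiency, none passed as higher, and none passed between the deficiencies. The nitrate reductase gene NIA1 had 4575 ± 1936 normalised reads in control roots and 2210 ± 308 in N-deficient roots (-0.98 ± 0.252; limma, adjusted p = 0.037), and its log2 fold change under P deficiency was -1.50 ± 0.254 (adjusted p = 0.016). The nitrate reductase gene Os02g0770800 had -1.72 ± 0.309 and -1.55 ± 0.306 in the same comparisons (limma, adjusted p = 0.0080 and 0.028). Control library 3 stood apart for both, at 6631 normalised reads of NIA1 against 3334 and 3410 in control libraries 1 and 2, and at 12904 of Os02g0770800 against 6376 and 5218. It also had the highest shoot marker sum, and the part of these markers in the differences was not tested. Without that library, left out after seeing the data, the log2 fold changes were -0.65 and -1.33 under N deficiency (limma, adjusted p = 0.019 and 0.0037) and -1.18 and -1.17 under P deficiency (limma, adjusted p = 0.0057 and 0.013). The nitrite reductase gene NIR had 176 ± 1.81 normalised reads in control roots and 175 ± 16.3 in N-deficient roots, and did not pass (limma, adjusted p = 0.98).

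Of 4 ammonium transporter genes, 3 rose under N deficiency and 2 fell under P deficiency. AMT1;3, one of the root ammonium transporters, had a log2 fold change of 3.81 ± 0.520 under N deficiency (limma, adjusted p = 0.0023), the highest among all 21 and within the range of the uptake genes. It had 0 reads in the 3 P libraries together and 16 in the 3 control libraries (limma, adjusted p = 0.0398 for P deficiency). In that comparison AMT1;3 passed the low-value filter through the control group alone. AMT1;1 and AMT2;1 rose by 1.15 and 0.87 on the log2 scale under N deficiency. AMT1;2 was called lower under P deficiency, at -1.45 ± 0.303 (limma, adjusted p = 0.035), and had -0.11 ± 0.267 under N deficiency. In N against P deficiency 3 of the 4 were higher. The AMT1 genes are related copies, so reads that fit more than 1 of them could also have been split.

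Among 7 regulators, 2 rose and 2 fell under N deficiency, and 2 rose under P deficiency. NIGT1, the rice relative of the Arabidopsis repressors of NRT2 genes, had 138 ± 20.004 normalised reads in control roots and 31.9 ± 6.15 in N-deficient roots (-2.09 ± 0.215; limma, adjusted p = 6.7e-04), and it rose from 131 ± 18.2 to 1340.0 ± 86.9 under P deficiency (3.35 ± 0.126; limma, adjusted p = 2.0e-05). NLP6, an RWP-RK factor, also went in opposite directions, by -4.14 ± 0.161 under N deficiency and 1.13 ± 0.101 under P deficiency (limma, adjusted p = 8.7e-06 and 0.0013). NLP1 and NLP4, activators of nitrate-responsive genes, rose by 1.33 and 1.13 on the log2 scale under N deficiency and had 0.09 and -0.33 under P deficiency (limma, adjusted p = 0.64 and 0.31). Between the deficiencies, NIGT1 and NLP6 were lower under N deficiency, with log2 differences of -5.43 and -5.27 (limma, adjusted p = 6.1e-08 and 5.6e-08), and NLP1, NLP2 and NLP4 were higher.

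**Figure D5:**
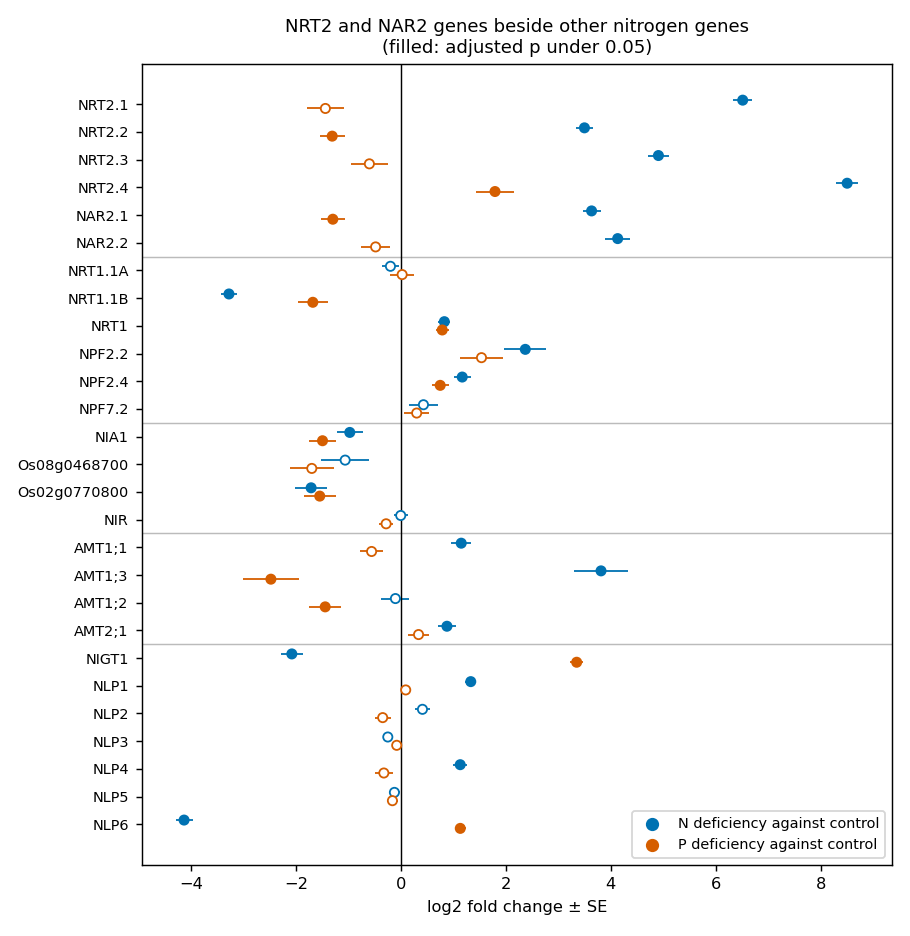
Log2 fold change ± SE for N and P deficiency against control in the 6 uptake genes (top) and, between grey lines, in genes of nitrate transport, nitrate reduction, ammonium uptake and regulation (filled symbols passed an adjusted p of 0.05). The uptake genes lie at 3.49 to 8.50 under N deficiency, and NIGT1 and NLP6 lie on opposite sides of 0 in the 2 comparisons.

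The nearest gene listed on each side of the 6 genes was examined for shared changes along the chromosome, and no listed gene overlapped any of the 6. Of 9 such neighbours outside the group that were tested in both comparisons, 1 was called under N deficiency, as higher, and 0 under P deficiency. Of all tested genes, 12.8% and 6.28% were called, and 6.9% were called higher under N deficiency. The counts are too small to be told apart from these shares. Among these 9, the neighbour called was Os01g0704000, whose protein has a domain of invertase or pectin methylesterase inhibitors. It lies head to head with NRT2.3, with 3877 bases between the genes. It stood at 0, 1.89 and 2.72 normalised reads in control, 177, 120 and 179 under N deficiency and 2.37, 0 and 0 under P deficiency, on the scale of all 9 libraries (log2 fold change 6.17 ± 0.501 for N deficiency; limma, adjusted p = 2.5e-04). Its N-deficient libraries were all far above the others. On the other side of NRT2.3, at 1055 bases, Os01g0704200 had a log2 fold change of 0.01 ± 0.182. A further neighbour, Os02g0113300, lies 48803 bases from NRT2.2, is in the N table only and passed the low-value filter through the N-deficient group alone. Its values were 0, 0 and 0.930 in control and 19.97, 8.13 and 11.7 under N deficiency. Os02g0113300 was also called higher under N deficiency (limma, adjusted p = 0.0033). It is not in the count above, since it was not tested under P deficiency. With Os02g0113300 counted, 2 of 10 neighbours tested under N deficiency were called. Both NAR2 genes lie tail to tail with a gene for a plant-specific initiation factor 4B, at 689 bases for NAR2.1 and 1469 bases for NAR2.2. Neither of these passed under N deficiency, with log2 fold changes of 0.13 ± 0.0956 and -0.02 ± 0.0884 (limma, adjusted p = 0.47 and 0.92).

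Genes with the pattern most like that of the group were ranked over 32012 genes by the root mean square difference, over 9 libraries on the log2 scale, from the mean profile of the 6 genes, each centred on its own mean. NRT2.3 was closest to this profile at 0.33, NAR2.2 had 0.54, NAR2.1 0.65 and NRT2.2 0.71, while NRT2.1 had 0.92 and NRT2.4, whose change was the largest, 1.45. Since the 6 genes make up the profile, their own distances show only how they differ among themselves. The 5 closest genes outside the group were Os01g0704000 at 0.76, Os08g0150700 with a phloem protein 2 domain at 0.76, an unannotated locus on chromosome 7 (28712480 to 28714713) at 0.87, Os06g0504900 with a WRKY domain at 0.92 and AMT1;3 at 0.94. Os08g0150700 had 68.8 ± 17.7 normalised reads in control roots, 1399 ± 297 in N-deficient roots and 85.8 ± 15.7 in P-deficient roots (SD, n = 3). The list thus held the head-to-head neighbour of NRT2.3 and a root ammonium transporter. These 5 genes were picked for likeness over the same 9 libraries, so their rise under N deficiency follows from the choice. Under P deficiency their log2 fold changes were -0.55, 0.33, 0.15, -0.40 and -2.48, in the order above. AMT1;3 alone was called there (limma, adjusted p = 0.0398).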

How the data were processed

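Per the labels, TruSeq RNA libraries were made from total root RNA. The deposited library columns hold a normalised signal, gene read counts divided by the authors by a size factor for each library, set anew in each of 2 tables (35128 and 35059 genes). HISAT2 2.0.5 and the assembly name hg38 stand in the submitters' processing notes, and no source used here names the read counter, strand setting or rice build. Whole reads were recovered for 100% of values (tolerance 0.001 reads), and 0 control reads differed between the tables. The log2 fold change, p-value and adjusted p-value columns deposited by the authors were not used for any result.

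Genes with a mean of at least 1 in 1 group were tested with limma 3.58.1 (R 4.3.3, intensity trend) on log2(value + 1), which understates the change of low genes, with Benjamini-Hochberg adjustment over all genes and a threshold of 0.05. N and P deficiency were each tested within their own table, and N against P deficiency over all 9 libraries on recovered reads with median-of-ratios size factors, the scale also used for levels, shares and ratios. Since the files hold normalised values, limma took the place of edgeR, which on the recovered reads called 4156, 1976 and 1270 genes for N deficiency, P deficiency and N against P deficiency. Shares and ratios used exact permutation tests (SciPy 1.17.1). Alternatives were edgeR 4.0.16, DESeq2 1.42.0 and the settings named below. The limma p-values rest on the spread among 3 libraries per group, moderated over all genes. For N against P deficiency that spread also took in the control libraries. The permutation p-values count rearrangements of 3 against 3 libraries. No batch is given in the labels.

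Named were the 6 genes, 21 listed pathway genes, the nearest neighbours and the 5 genes of most similar pattern. Members and lists were chosen with earlier results of these data known. Symbols came from the deposited tables for 3 members. NRT2.1, NRT2.2 and NAR2.2 were matched by symbol and chromosome in RefSeq (ASM3414082v1), which also set the names of AMT1;2 and AMT1;3. NRT2.1 and NRT2.2 both lie on chromosome 2, so this match could not tell which copy is which.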

Additional observations from a re-analysis of the deposited data

How the results depend on the processing

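Of 258 refits of the 6 genes, 244 kept direction and side of the threshold, 12 lost a call, 2 gained one and 0 changed direction; the 12 losses were all under P deficiency with 1 library left out, which also leaves fewer samples. NRT2.1 passed under P deficiency in 1 fit over 9 libraries (adjusted p = 0.0058), and the other gain was the sum of NRT2.1 with NRT2.2, most of whose reads are those of NRT2.2. Leaving out a control library changes only the spread, not the difference, in N against P deficiency. The count of the 6 genes passing under P deficiency was 3, and 0 to 3 with 1 library left out. Genes passing in all numbered 4194 for N deficiency, 2047 for P deficiency and 1241 for N against P deficiency. With 1 library left out these counts ran from 2622 to 3710, from 696 to 3384 and from 689 to 1577, the highest under P deficiency being without P library 3. DESeq2 called 3256 and 2278 for P deficiency and N against P deficiency; the cause was not tested. Without P library 3, the P-deficient minus control difference in the NRT2.3 share turned from -7.04 to 2.37 percentage points, and with 1 library left out it ran from -14.5 to 2.37.

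The replicate number was tried as a block. Same-numbered libraries correlated from -0.06 to 0.22 in their deviations from the group means, with 5 of 9 pairs over 0.1, all of them of numbers 2 and 3, and other pairs from -0.24 to 0.13. As a hint from the data, 6 of 9 libraries correlated best with one of their own number; since not every pair was over 0.1, the numbers were not taken to pair the libraries. The replicate block gave 4661, 2106 and 1522 passing genes in the 3 comparisons and the same calls for the 6 genes. Depth limits NRT2.1 under P deficiency, which rests on 11 reads over 3 libraries against 37 in control.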
